A study of Mus musculus with 10 samples.

Results

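Nrf2, the antioxidant transcription factor encoded by Nfe2l2, works in a small circuit with its inhibitor Keap1 and their partner proteins. The 10 genes of this circuit described here were taken by symbol from the deposited gene table: Nfe2l2, Keap1, Cul3, Rbx1, Sqstm1, Nfe2l1, Mafg, Mafk, Maff and Bach1. Each symbol matched 1 of the 21222 genes in the table. The study measured mRNA of the left ventricle in 10 libraries, all from male mice of the C57BL/6J strain aged 6 months. Non-transgenic mice (NTG) gave 4 libraries. The line labelled CaNrf2-Low (TGL) and the line labelled CaNrf2-High (TGH) gave 3 libraries each, and TG stands for the 6 libraries of both lines. CaNrf2 is a transgene for constitutively active Nrf2. The labels do not give its promoter, its species or which part of Nfe2l2 it carries, nor whether a line stems from 1 founder.

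In an unstressed cell, Keap1 holds Nrf2 in the cytoplasm and presents it to a ubiquitin ligase built on the scaffold Cul3 and the RING protein Rbx1, and Nrf2 is degraded. Oxidants and electrophiles modify Keap1, Nrf2 escapes, enters the nucleus and pairs with a small Maf protein (Mafg, Mafk or Maff) on antioxidant response elements. Bach1 competes with Nrf2 for the small Mafs and represses the same elements. Sqstm1, also called p62, is an autophagy receptor that can take Keap1 away. Nfe2l1, also called Nrf1, is a relative of Nrf2 that also pairs with small Mafs and controls proteasome genes. In the heart this circuit sets the supply of glutathione and of reducing enzymes.

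The sequence before the start site of each gene was searched for the antioxidant response element core, TGACNNNGC, on both strands. RefSeq windows of 300 bases on build GRCm38.p6, 250 before and 50 after a start site, were available for all 10 genes (16 windows, since Nfe2l1 and Maff have several). A match lay in 4 of the 10 genes, Nfe2l2 and the 3 small Mafs, against 14% of the 27025 genes with a window and 9 of 27 textbook Nrf2 targets. No match was found in the windows of the other 6. The longer Maf recognition element, some forms of which contain the core, matched none of the 16 windows and 0.423% of all 32851 windows. A match is a run of letters only. Of the windows of Maff, 1 of 3 held a match, and that start is the one shown. The 250 bases before the start of the 4 genes with a match are shown 5′ to 3′ on the strand of the gene, because they are Nrf2 itself and its small Maf partners, whose mRNA is compared further on. Capitals mark the match, which is on the shown strand in Nfe2l2 and Maff and on the other strand in Mafg and Mafk.
Nfe2l2, chr2:75704664-75704913, minus strand: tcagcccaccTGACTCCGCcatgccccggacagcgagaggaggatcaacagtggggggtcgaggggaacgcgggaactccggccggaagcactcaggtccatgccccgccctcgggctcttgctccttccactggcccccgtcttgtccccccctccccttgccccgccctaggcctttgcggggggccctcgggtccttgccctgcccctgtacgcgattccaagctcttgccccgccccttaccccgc
Mafg, chr11:120633548-120633797, minus strand: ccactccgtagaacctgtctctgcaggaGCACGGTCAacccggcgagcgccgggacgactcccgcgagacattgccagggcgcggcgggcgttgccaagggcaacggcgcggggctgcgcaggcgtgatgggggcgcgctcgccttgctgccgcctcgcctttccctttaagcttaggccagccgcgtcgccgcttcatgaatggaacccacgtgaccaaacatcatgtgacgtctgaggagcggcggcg
Mafk, chr5:139791286-139791535, plus strand: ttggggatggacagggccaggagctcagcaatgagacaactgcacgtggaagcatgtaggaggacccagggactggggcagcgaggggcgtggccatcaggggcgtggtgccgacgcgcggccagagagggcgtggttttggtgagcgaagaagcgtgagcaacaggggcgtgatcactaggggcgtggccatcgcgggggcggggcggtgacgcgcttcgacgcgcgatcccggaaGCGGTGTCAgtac
Maff, chr15:79346371-79346620, plus strand: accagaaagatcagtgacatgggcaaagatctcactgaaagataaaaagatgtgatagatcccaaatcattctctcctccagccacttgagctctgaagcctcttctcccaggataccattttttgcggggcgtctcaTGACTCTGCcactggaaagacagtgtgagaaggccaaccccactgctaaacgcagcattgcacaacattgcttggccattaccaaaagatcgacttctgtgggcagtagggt

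Total counts were 7076319 to 10896535 per library, and all 10 genes passed the filter on low counts in every comparison. The gene with the fewest reads, Maff, had 40 to 245 counts per library, and the one with the most, Nfe2l1, had 4579 to 6757. Levels are given as CPM, counts relative to library size, where TMM scaling had adjusted that size for differences in RNA make-up. The tissue label was checked against 10 cardiomyocyte markers, whose summed level was 87024 to 96977 CPM in NTG, 80372 to 85644 in TGL and 62473 to 68223 in TGH. In TGH against NTG 9 of these 10 markers fell, while 9 of 10 fibroblast and 4 of 10 macrophage markers rose and 4 of 10 endothelial markers fell. Of all tested genes, 16% rose and 16.4% fell there. Summed fibroblast markers stood at 2324 to 2600 CPM in NTG, 2594 to 3254 in TGL and 3263 to 3784 in TGH. None of the cardiomyocyte, fibroblast, endothelial or macrophage markers was at 0 in any library. These shifts move with every TGH result below, and their part in it was not tested. In such whole-tissue RNA, fewer cells of a type and less RNA per cell cannot be told apart.

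In the high line 4 of the 10 genes rose against NTG, Nfe2l2, Keap1, Mafg and Sqstm1, and 2 fell, Nfe2l1 and Cul3. In this comparison 32.4% of all 14511 tested genes passed the same test in either direction, 16% upwards and 16.4% downwards. Groups without overlap, which 19.3% of all genes showed upwards and 19.6% downwards, were seen for 7 of the 10, the 6 called genes and Maff. In the low line none of the 10 passed, where 6.29% of all genes did, 4.15% upwards and 2.14% downwards. Between the lines Keap1 and Mafg were higher in TGH and Nfe2l1 lower, beside 9.64% of all genes, 5.53% upwards and 4.11% downwards. Calls come from the quasi-likelihood test of edgeR, with p adjusted over all tested genes by the Benjamini-Hochberg method and 0.05 as the threshold. Nothing in the labels says that mice of a group came from separate litters, so these p-values measure the spread between the libraries given.

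**Figure D1:**
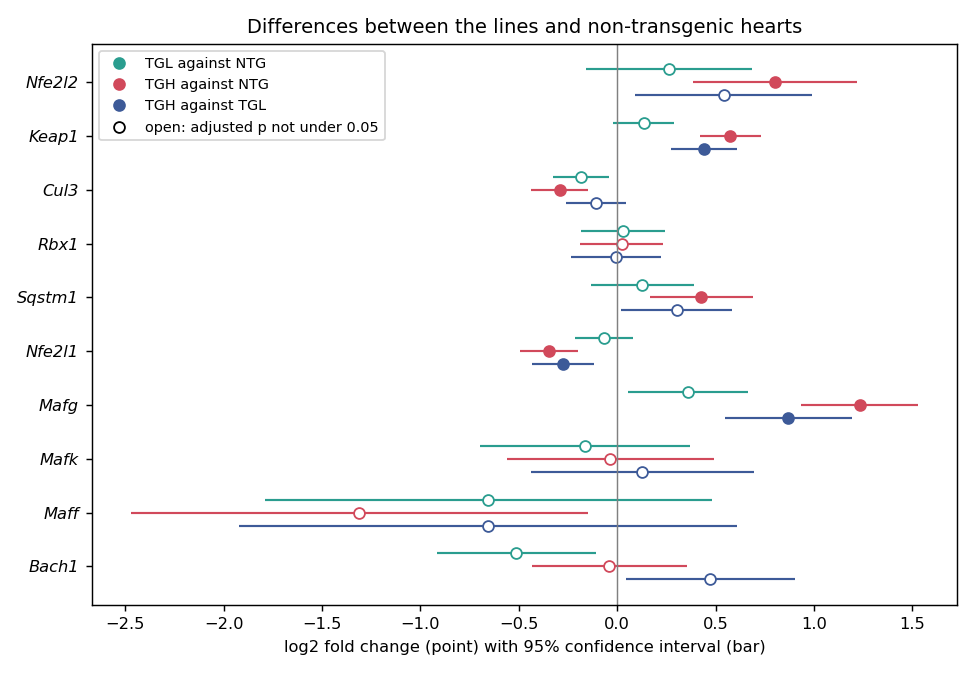
Log2 fold change of each gene (horizontal axis, point) with its 95% confidence interval (bar) in TGL against NTG, TGH against NTG and TGH against TGL. Filled points passed the adjusted threshold: 6 in TGH against NTG, 3 between the lines and 0 in TGL against NTG.

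Nfe2l2 (ENSMUSG00000015839, GRCm38 chromosome 2, 75675513 to 75704641) is the gene named by the transgene. Its level was 164, 145, 88.3 and 122 CPM in NTG 0 to NTG 3, 156, 129 and 182 in TGL, with 254, 182 and 244 in TGH. Every TGH library lay above every NTG library, while TGL overlapped both. NTG libraries spread 1.86-fold, from NTG 2 at the bottom to NTG 0 at the top. Nfe2l2 rose 1.74-fold in TGH against NTG (log2 fold change 0.80 ± 0.19 SE, edgeR adjusted p = 0.0078). The estimate was 0.26 in TGL against NTG, with a 95% interval of -0.16 to 0.68. It ran from 0.12 to 0.39 with 1 library left out, and was -0.01 with NTG 2 and TGL 2 both left out. Between TGH and TGL it was 0.54 ± 0.21 (edgeR adjusted p = 0.129), and 0.67 without NTG 2 and TGL 2 (edgeR adjusted p = 0.0254). With 1 library left out it passed in 1 of 10 fits, the one without NTG 2 (edgeR adjusted p = 0.0489). In the others edgeR adjusted p was up to 0.332, so this call depended on which libraries were kept. Whether reads of the transgene are counted in this gene is not known from the labels, so these levels do not check them.

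Keap1 (ENSMUSG00000003308, chromosome 9, 21229730 to 21239361), the adaptor that hands Nrf2 to the ligase, had the smallest relative spread of the 10 genes within NTG and within TGL. It stood at 41.3, 42.0, 41.3 and 43.6 CPM in NTG, 45.8, 46.8 and 45.8 in TGL, with 59.4, 61.8 and 66.8 in TGH. The 3 groups did not overlap. Between the lines 14.5% of all genes had every TGH library above every TGL library, and 13.9% had the reverse. Keap1 rose 1.49-fold in TGH against NTG (0.58 ± 0.07, edgeR adjusted p = 8.72e-05) and 1.36-fold in TGH against TGL (0.44 ± 0.08, edgeR adjusted p = 0.00368). In TGL all 3 libraries were above all 4 NTG libraries, but the difference did not pass (0.13 ± 0.07, edgeR adjusted p = 0.3). Groups without overlap, higher in TGL, were seen in 10.8% of all tested genes. The exons of Keap1 share 510 bases with the antisense gene Gm16754, 10.9% of their length, and the labels do not say whether the counting used strand. Gm16754 was not analysed here.

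Inhibitor and factor were also set against each other. The ratio of Keap1 to Nfe2l2 per kilobase of exon was 0.204 to 0.378 in NTG, 0.203 to 0.295 in TGL and 0.189 to 0.275 in TGH, so the ranges overlapped. The ratio was highest in NTG 2, the library with the least Nfe2l2. Whether transgene reads are part of the Nfe2l2 value in TGL and TGH is not known, which limits the ratio there.

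**Figure D2:**
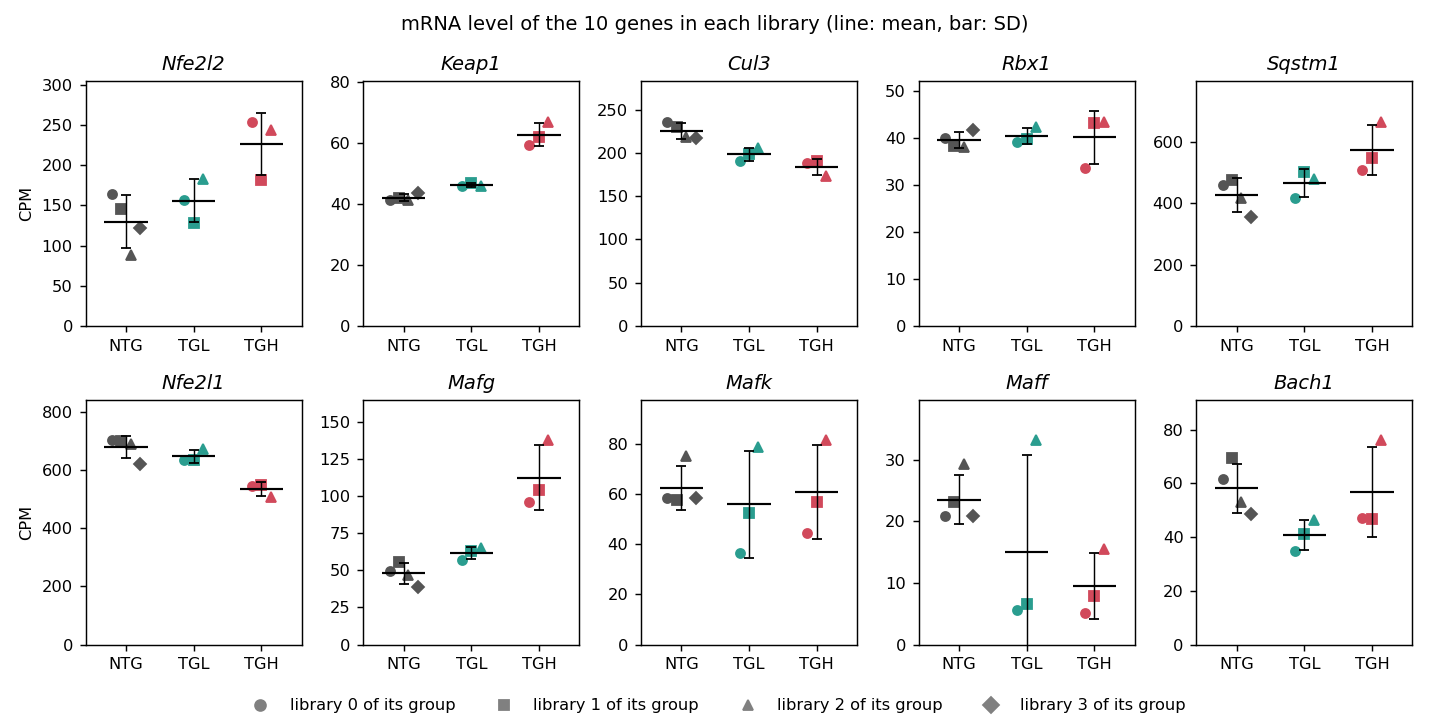
Level in CPM (vertical axis, from 0) of the 10 genes in the 4 NTG, 3 TGL and 3 TGH libraries, with the mean (line) and SD (bar, ended at 0 for Maff in TGL). Marker shapes give the library number. Keap1 and Mafg separate the 3 groups in rising order and Cul3 in falling order, and Maff in TGL spans 5.53 to 33.2 CPM.

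Cul3 (ENSMUSG00000004364, chromosome 1, 80264923 to 80340480), the scaffold of the Keap1 ligase, fell as its adaptor rose. Levels were 236, 230, 218 and 217 CPM in NTG, 191, 198 and 205 in TGL, with 188, 190 and 173 in TGH. All 6 TG libraries lay below all 4 NTG libraries, as they did for 6.38% of all genes. Cul3 fell to 0.816-fold in TGH (-0.29 ± 0.07, edgeR adjusted p = 0.00586) and stood at 0.880-fold in TGL (-0.18 ± 0.07, edgeR adjusted p = 0.127). The list of 10 cardiomyocyte markers, of which 9 fell in TGH, had a median log2 fold change of -0.44 there, and its part in the fall of Cul3 was not tested.

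Rbx1 (ENSMUSG00000022400, chromosome 15, 81466296 to 81476369), the RING subunit that recruits the charged enzyme, stood at 40.0, 38.2, 37.9 and 41.7 CPM in NTG, 39.0, 39.8 and 42.2 in TGL, with 33.6, 43.2 and 43.4 in TGH. The groups overlapped throughout, with TGH 0 the lowest of all libraries. Its log2 fold change was 0.02 in TGH (95% interval -0.19 to 0.24, edgeR adjusted p = 0.872) and 0.03 in TGL (-0.18 to 0.25). Among 16 genes that load, exchange or complete cullin ligases, Rbx1 included, 2 rose in TGH and 0 fell, beside the 16% of all genes that rose and the 16.4% that fell, and the median was 0.06 beside -0.02 over all tested genes. Ube2f, the Nedd8-conjugating enzyme that serves Cul5, stood at a mean of 71.6 CPM in TGL and 101 in TGH, 2.03-fold above NTG in the latter (1.02 ± 0.09, edgeR adjusted p = 6.67e-06). It had already passed in TGL (0.52, edgeR adjusted p = 0.00554). Uba3, a subunit of the Nedd8-activating enzyme, rose 1.37-fold in TGH (edgeR adjusted p = 0.00108). Other genes of Nedd8 attachment did not pass, with log2 fold changes of 0.17 for Nedd8 itself, -0.06 for the conjugating enzyme Ube2m and -0.0010 for Nae1, the partner subunit of Uba3.

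Sqstm1 (ENSMUSG00000015837, chromosome 11, 50199366 to 50210827) had 461, 476, 416 and 354 CPM in NTG, 416, 504 and 478 in TGL, with 508, 549 and 666 in TGH. The TGH libraries were above all others, with TGH 2 the highest. Sqstm1 rose 1.35-fold in TGH against NTG (0.43 ± 0.12, edgeR adjusted p = 0.0172) and did not pass once TGH 2 was left out (edgeR adjusted p = 0.0713). In TGL it stood 1.09-fold higher (0.13 ± 0.12, edgeR adjusted p = 0.57). Its exons overlap those of Mrnip on the other strand over 580 bases, 17.3% of their length, and the count given to Mrnip was at most 1.38 CPM in any library. Of 15 receptors and partners of selective autophagy, 3 rose and 5 fell in TGH, beside 16% and 16.4% of all genes. Their median was -0.06. The Atg8 family, which coats the autophagosome membrane and binds Sqstm1, was split. Map1lc3a (1.37-fold, edgeR adjusted p = 0.000345), Gabarapl1 (1.39-fold) and Gabarapl2 (1.25-fold) rose, whereas Map1lc3b (0.825-fold) and Gabarap (0.806-fold) fell. The receptor Calcoco1 (0.728-fold), the receptor Optn (0.846-fold) and the kinase Ulk1 (0.811-fold), which starts autophagy, also fell. Map1lc3a also passed between the lines (edgeR adjusted p = 0.000701).

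Nfe2l1 (ENSMUSG00000038615, chromosome 11, 96817414 to 96829968) moved against its relative Nfe2l2. It had 701, 700, 688 and 621 CPM in NTG, 633, 634 and 672 in TGL, with 545, 549 and 506 in TGH. All TGH libraries lay below every other library. Nfe2l1 fell to 0.787-fold in TGH against NTG (-0.35 ± 0.07, edgeR adjusted p = 0.00262) and to 0.825-fold in TGH against TGL (-0.28 ± 0.07, edgeR adjusted p = 0.0327). The difference between the lines no longer passed when TGL 0, TGL 1, TGL 2, TGH 1, TGH 2 or NTG 0 was left out, with edgeR adjusted p up to 0.106. In TGL the difference was -0.07, with a 95% interval of -0.22 to 0.08. Among 11 measured genes that process the Nfe2l1 protein or act on its stability, 1 rose and 3 fell in TGH. Of all genes, 16% rose and 16.4% fell there. The protease Ddi2, which cleaves Nfe2l1 into its active form, fell to 0.688-fold (edgeR adjusted p = 0.0155). Hcfc1 fell to 0.788-fold, and Syvn1, the Hrd1 ligase of the endoplasmic reticulum, to 0.752-fold. Vcp, the extraction motor, rose by 0.24 on the log2 scale. The cardiomyocyte markers that fell in TGH had a median of -0.44 as a list, and their part in the fall of Nfe2l1 was not tested.

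The small Mafs, short partners without an activation domain of their own, differed in their calls: Mafg passed in TGH, and Mafk and Maff did not. Mafg (ENSMUSG00000051510, chromosome 11, 120625117 to 120633600), the first of them, had 49.4, 55.9, 47.1 and 39.0 CPM in NTG, 57.1, 62.6 and 64.7 in TGL, with 95.8, 104 and 137 in TGH. The 3 groups did not overlap and ascended from NTG through TGL to TGH. Every TGL library lay above every NTG library in 10.8% of all tested genes, and every TGH library above every TGL library in 14.5%. Mafg rose 2.35-fold in TGH against NTG (1.23 ± 0.14, edgeR adjusted p = 4.14e-05) and 1.83-fold in TGH against TGL (0.87 ± 0.15, edgeR adjusted p = 0.00338). Of the 10 genes it had the largest called change in both comparisons. In TGL it was 1.28-fold higher without passing (0.36 ± 0.14, edgeR adjusted p = 0.153).

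Mafk (ENSMUSG00000018143, chromosome 5, 139791513 to 139802653) stood at 58.3, 57.7, 75.5 and 58.6 CPM in NTG, 36.5, 52.5 and 78.7 in TGL, with 44.5, 56.9 and 81.5 in TGH. Each group held 1 library far above the rest, NTG 2, TGL 2 and TGH 2, and the groups overlapped. Its log2 fold change was -0.04 in TGH (95% interval -0.56 to 0.49) and -0.16 in TGL (-0.69 to 0.37).

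Maff (ENSMUSG00000042622, chromosome 15, 79346621 to 79359076), which is known to be induced by stress, had 20.9, 23.2, 29.3 and 20.8 CPM in NTG, 5.53, 6.53 and 33.2 in TGL, with 5.15, 7.87 and 15.5 in TGH. All TGH libraries were below all NTG libraries, whereas TGL 2 was the highest of all 10. The fold change of 0.403 in TGH did not pass (-1.31 ± 0.53, edgeR adjusted p = 0.0788). The corresponding value in TGL was 0.635-fold (-0.65 ± 0.52, edgeR adjusted p = 0.492). Without TGL 2 the log2 fold change was -1.96 in TGL (edgeR adjusted p = 0.0075), and Maff then passed in TGH as well (edgeR adjusted p = 0.00444). In TGH it also passed without TGH 2 and in the fit of NTG and TGH alone (edgeR adjusted p = 0.00897).

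The high Maff libraries of the transgenic lines were also those with the most heat shock mRNA, in a list of 8 heat shock genes chosen after the data were seen. Their summed level was 3790, 3238, 2108 and 3012 CPM in NTG, 1361, 1540 and 3232 in TGL, with 1265, 1263 and 2141 in TGH. Within NTG the order differed, since NTG 2 had the most Maff and Mafk and the least heat shock mRNA. A list of 8 immediate early genes, chosen at the same point, summed to 276 CPM in TGL 2 against 111 and 126 in the other TGL libraries, and to 209 CPM in TGH 2 between 91.7 and 350 in the other TGH libraries. Their part in the Maff values was not tested.

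**Figure D3:**
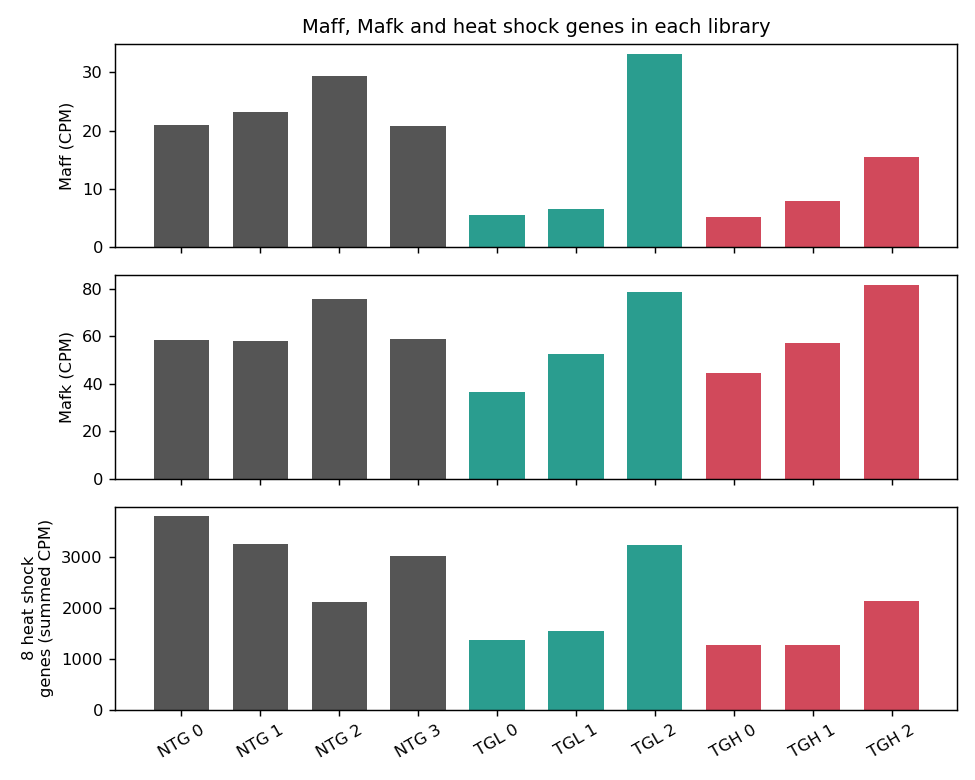
Level of Maff and of Mafk in CPM and the summed CPM of 8 heat shock genes (vertical axes, from 0) in each library (horizontal axis; grey NTG, green TGL, red TGH). TGL 2 stands above TGL 0 and TGL 1 in all 3 panels, and NTG 2 is the lowest NTG library in the heat shock panel alone.

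Set per kilobase of exon, Mafg took a larger share of the small Maf mRNA in every TGH library than in any NTG library. Mafg held 25.5% ± 3.75 of it in NTG (SD, n = 4), 38.0% ± 10.9 in TGL and 51.7% ± 4.19 in TGH (SD, n = 3 each). Maff held 26.9% ± 1.51 in NTG, 16.0% ± 11.1 in TGL and 8.84% ± 2.57 in TGH, and Mafk 47.6% ± 2.82, 46.1% ± 3.27 and 39.5% ± 1.79. TGL 2, with 25.9% Mafg and 28.7% Maff, lay within or next to the NTG range for these shares, unlike TGL 0 and TGL 1. The sum of the 3 genes overlapped between the groups, at 33.6 ± 3.90 CPM per kilobase in NTG, 31.1 ± 11.9 in TGL and 39.3 ± 10.8 in TGH. These shares are descriptions without a test.

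**Figure D4:**
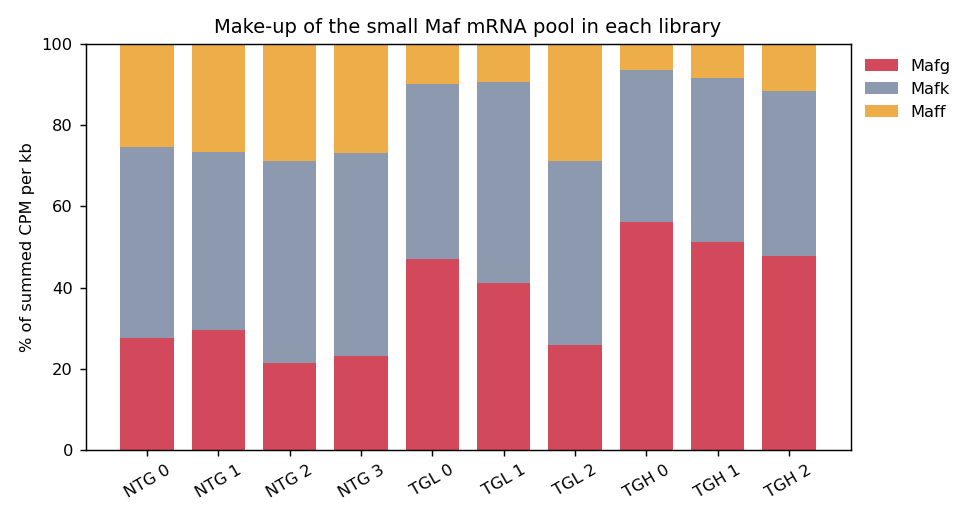
Share of Mafg, Mafk and Maff in their summed CPM per kilobase of exon (vertical axis, percent) in each library (horizontal axis). Mafg holds 21.5 to 29.5% in NTG and 47.7 to 56.0% in TGH, and the make-up of TGL 2 is near that of NTG.

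Bach1 (ENSMUSG00000025612, chromosome 16, 87698945 to 87733346), the repressor that competes for small Mafs, had 61.5, 69.3, 53.0 and 48.8 CPM in NTG, 35.0, 41.0 and 46.4 in TGL, with 47.1, 46.8 and 76.0 in TGH. The TGL libraries were below all others, and TGH 2 was the highest of all. In TGL the level was 0.701-fold of NTG without passing (-0.51 ± 0.19, edgeR adjusted p = 0.129, and 0.0479 without TGH 2). Groups without overlap, lower in TGL, were seen in 9.44% of all genes. In TGH the difference was -0.04, with a 95% interval of -0.43 to 0.35, and -0.31 without TGH 2. The sum of the small Mafs over Bach1, per kilobase, was 3.64 ± 0.699 in NTG, 4.61 ± 1.14 in TGL and 4.31 ± 0.406 in TGH (SD), with overlap between all groups.

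Of 6 further Maf and Cap'n'Collar family genes in the table, 3 passed the filter on low counts, and among them Bach2, the paralog of Bach1 known from B cells, rose in TGH. Bach2 had means of 5.82 CPM in NTG, 8.03 in TGL and 9.03 in TGH (0.63 ± 0.16 in TGH, edgeR adjusted p = 0.00992). It did not pass in TGL (edgeR adjusted p = 0.129) or between the lines (edgeR adjusted p = 0.572).

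Routes other than Keap1 also degrade or restrain Nrf2. Of 11 measured genes of these routes, 2 rose and 1 fell in TGH, where 16% of all genes rose and 16.4% fell. Skp1a, the linker of the β-TrCP ligase, rose 1.44-fold (edgeR adjusted p = 0.000444), and Gsk3b, the kinase that marks Nrf2 for that ligase, by a log2 fold change of 0.24 (edgeR adjusted p = 0.0245). The gene that fell was Syvn1, named above. Of 10 measured proteins that bind Keap1 or shield Nrf2 from it, 3 rose and 3 fell, beside the same shares of all genes. Amer1, a tumour suppressor that binds Keap1, rose 2.24-fold (edgeR adjusted p = 0.00271). Cdkn1a, the cell cycle inhibitor p21 that can shield Nrf2, had means of 61.4 CPM in NTG, 24.2 in TGL and 15.1 in TGH. It fell in TGH (-2.03 ± 0.51, edgeR adjusted p = 0.0107). It did not pass in TGL (edgeR adjusted p = 0.137) or between the lines (edgeR adjusted p = 0.495). Slk (0.764-fold) and prothymosin alpha (Ptma, 0.785-fold) fell in TGH too. Medians of the lists were -0.04 for the degradation routes and 0.03 for the Keap1 binders.

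Of 12 measured coregulators that Nrf2 uses at its targets, 6 fell and 0 rose in TGH (median -0.41, against -0.02 over all genes), where 16.4% of all genes fell. In TGL 3 fell (median -0.28), where 2.14% of all genes did. The summed level of the list was 768 to 845 CPM in NTG. It was 605, 621 and 732 CPM in TGL 0 to TGL 2, and 595, 560 and 699 CPM in TGH 0 to TGH 2. TGL 2 and TGH 2 were thus nearest to NTG in both lines, and they were also the libraries of their lines with the most heat shock mRNA and Maff, whose part in these values was not tested. The acetyltransferases Ep300 (0.668-fold, edgeR adjusted p = 0.000401) and Crebbp (0.739-fold, edgeR adjusted p = 0.00587) were among those that fell. Ep300 and Crebbp had also fallen in TGL (edgeR adjusted p = 0.0306 and 0.0352). None of the 12 passed between the lines.

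Of 33 measured textbook targets, 27 rose in TGH, 18 in TGL and 22 between the lines, and 0 fell in any of these. The shares of all genes that rose were 16%, 4.15% and 5.53%. The targets had medians of 1.38, 0.73 and 0.89 on the log2 scale. Their summed level was 3752 to 3975 CPM in NTG, 5729 to 6375 in TGL and 10177 to 11446 in TGH. The glutathione transferases Gsta1 and Gsta2 led by adjusted p together with Taldo1 and Blvrb. Gsta1 and Gsta2 are near-identical neighbours, so how reads were divided between them is uncertain. Taldo1, transaldolase of the pentose phosphate pathway, went from a mean of 69.0 CPM in NTG to 247 in TGL and 654 in TGH. Blvrb, biliverdin reductase B, went from 12.0 to 87.3 and 282 CPM. In TGL, where 18 targets rose, none of the 10 circuit genes passed, and 3 had an unadjusted p under 0.05, Mafg, Bach1 and Cul3, beside 22.3% of all genes. DESeq2 also called 0 of the 10 there.

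**Figure D5:**
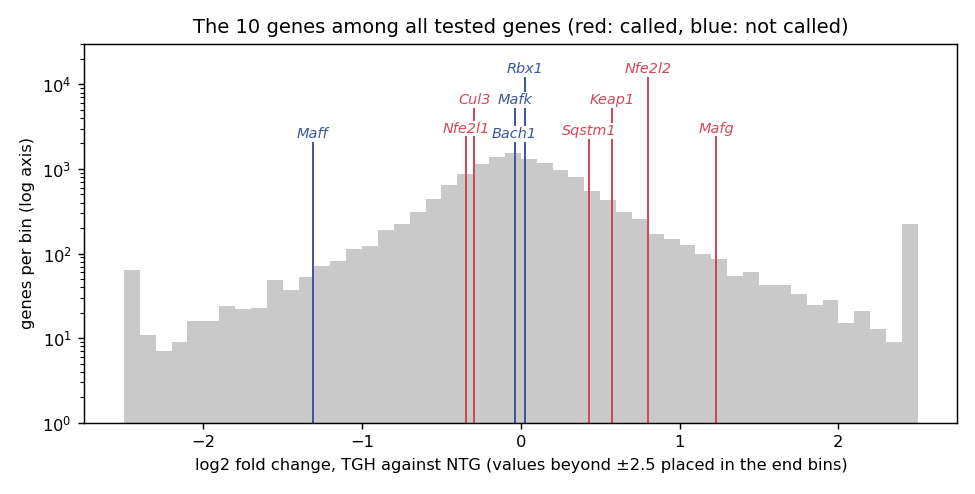
Log2 fold changes of all 14511 tested genes in TGH against NTG (grey bars, counts per bin on a log axis) with the 10 circuit genes marked. The marked values run from -1.31 (Maff, not called) to 1.23 (Mafg), and values beyond the axis are placed in the end bins.

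With both lines joined, as the authors compared them, the circuit gave fewer calls. In TG against NTG, where 17.4% of all 14265 tested genes passed (9.34% upwards, 8.03% downwards), Mafg and Keap1 rose and Cul3 fell. Every TG library was above every NTG library for Mafg and Keap1, and for 7.68% of all genes. The log2 fold changes were 0.87 ± 0.24 for Mafg (edgeR adjusted p = 0.0286), 0.38 ± 0.12 for Keap1 (edgeR adjusted p = 0.0493) and -0.24 ± 0.06 for Cul3 (edgeR adjusted p = 0.0258). The authors' deposited table gives adjusted p of 0.00391, 0.032 and 0.00392 for the same genes and 0.0512 for Nfe2l2. The calls depended on single libraries, while the estimates kept their direction. With 1 library left out, the log2 fold change ran from 0.70 to 0.97 for Mafg, from 0.32 to 0.43 for Keap1 and from -0.26 to -0.20 for Cul3. None of the 3 calls was left without NTG 0, NTG 1 or TGH 0, only Cul3 was left without NTG 2, NTG 3 or TGH 1, and Keap1 alone of the 3 was lost without TGH 2. Fitting 3 groups, with the mean of both lines set against NTG, gave 5 calls, with Nfe2l2 and Nfe2l1 added.

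Between genes, levels per kilobase of exon show how much mRNA each partner had. In NTG, Sqstm1 and Nfe2l1 were the highest at 127 ± 16.3 and 125 ± 7.05 CPM per kilobase (SD, n = 4), and their libraries overlapped. Cul3 followed at 46.2 ± 1.88, Nfe2l2 at 34.2 ± 8.60 and Mafk at 16.0 ± 2.21. Bach1, Maff, Keap1, Rbx1 and Mafg lay between 9.41 and 8.52, each overlapping the next in the order. In TGH the order was Sqstm1 (171 ± 24.4, SD, n = 3), Nfe2l1 (93.0 to 101 over the libraries), Nfe2l2 (59.6 ± 10.3) and Cul3 (37.7 ± 1.95), so Nfe2l2 stood above Cul3 in every TGH library and below it in every NTG library. Mafg (17.1 to 24.5) and Mafk (11.4 to 20.9) overlapped in TGH, as did Mafk and Keap1 (13.3 ± 0.809). Maff was the lowest at 3.66 ± 2.06. Lengths are the union of annotated exons, which overstates the length where rare exons are annotated. Transgene reads, if counted in Nfe2l2, would also be part of its level in TGH.

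Likeness of log2 CPM over the 10 libraries was taken among 8309 genes. These had a mean of at least 10 CPM and a symbol that was no Gm number, clone name or pseudogene. Nfe2l2 was nearest to Cnot8, Ptdss1 and Zcchc2 (Pearson r = 0.928, 0.927 and 0.925). Keap1 was nearest to Map3k7, Atp6ap2 and Hint1 (r = 0.988, 0.984 and 0.980). Map3k7, the kinase TAK1, had group means of 86.1 CPM in NTG, 115 in TGL and 266 in TGH. After the group means were taken out, r was 0.804, 0.802 and 0.932 for the neighbours of Nfe2l2 and 0.569, 0.840 and 0.284 for those of Keap1. The neighbours were picked by r over the same 10 libraries, which also favours a high r within the groups. The libraries fall into 3 groups that differ in these genes, so these values are descriptions without a test.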

How the data were processed

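Left ventricle RNA was extracted with Trizol and made into TruSeq libraries, per the labels' protocols. Per the submitters' processing notes, reads were handled with bcl2fastq 1.8.4, Trim Galore 0.4.0, Novoalign, SAMtools and DESeq2 1.18.1 on mouse mm10 (GRCm38). The sources used here name no read counter, annotation or strand setting. The table deposited by the authors holds a whole-number count per gene and library. For their comparison of TG with NTG it also holds, per the file headers, a signal (baseMean), a log2 fold change, the standard error of that change (lfcSE), a test score (stat), a p-value and an adjusted p-value.

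The counts were tested with edgeR 4.0.16 in R 4.3.3 (filterByExpr, TMM scaling, quasi-likelihood F test), with 2 groups for TG against NTG and 3 groups in 1 fit for the other comparisons. Standard errors were obtained by dividing log2 fold changes by the root of F, and intervals use the fit's degrees of freedom. The code was tested on simulated data. Of the 21222 genes 1324 had no symbol (0.777% of counts). Per-length levels and overlaps used GENCODE M21, whose GRCm38 positions of the 10 genes equal those in the table, and promoters came from RefSeq. Chi-square per degree of freedom between libraries of a group was 2.91 to 18.0, above counting noise. All libraries were kept as separate samples, though such values cannot show that they came from separate mice. The replicate numbers were not used to pair libraries in the main fits.

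The 10 genes, 17 other gene lists and the naming rule were chosen with earlier results of these data known. The 10 genes are always named, and in other lists up to 4 genes by smallest adjusted p in TGH against NTG, some of which are not reported here, with single further names chosen after their values were seen (Gabarapl2, Map1lc3b, Gabarap, Optn, Nedd8, Ube2m and Nae1). Lists of lymphocyte and adipocyte markers had no gene above the low-count filter. Of 5 measured erythroid markers 0 passed in TGH against NTG, and of 8 smooth muscle and pericyte markers 1 rose and 2 fell. Only 2 of 5 atrial markers were above the low-count filter, and these 2 rose in that comparison. Among all genes 16% rose and 16.4% fell there. Alternatives were DESeq2 1.42.0, RLE scaling, other filters, thresholds, groupings and left-out libraries.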

Additional observations from a re-analysis of the deposited data

Results flagged for a closer look

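The level of Mafk in the 4 NTG libraries had a gap between its highest library, NTG 2 at 75.5 CPM, and the next of 0.951 of the whole range, above Dixon's critical value for 4 samples. For Nfe2l1 the lowest NTG library, NTG 3 at 621 CPM, gave a ratio of 0.839. About 1 in 20 groups passes this value by chance, and 10 genes were examined.

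The difference from NTG was not the same in both lines for 3 genes, by the test of TGH against TGL, which compares the lines with all that differs between them. The log2 fold change was 0.44 for Keap1, 0.87 for Mafg and -0.28 for Nfe2l1. Keap1 and Mafg passed in all 10 fits that left out 1 library, and Nfe2l1 in 4.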

How the results depend on the processing

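Of 760 values of single genes under the alternatives, 681 kept their direction and their side of the threshold, 36 lost and 19 gained a call, and 24 changed sign. The cause of these changes was not tested. In TGH against NTG the number of called genes was 6, and 5 to 7 under all alternatives. In TGL against NTG it was 0, and 1 (Maff) without NTG 2 and TGL 2 together. With 1 library left out it was 0 to 1. In TG against NTG 3 genes were called, 0 to 4 with 1 library left out, 5 with 3 groups in 1 fit, and 0 at a threshold of 0.01. The replicate number as a block gave 1 call there, Maff, and 7, 2 and 0 calls in TGH against NTG, TGH against TGL and TGL against NTG. Same-numbered libraries had deviations with r between -0.0543 and 0.334, over 0.1 in 2 of 9 pairs. The highest was TGL 2 with TGH 2, and the other was TGL 0 with TGH 0 at 0.152. Pairs of TGL and TGH libraries with unlike numbers ran from -0.262 to 0.154. These values cannot tell whether libraries with the same number were handled together.

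All sign changes were of values that were not called. Without NTG 2 and TGL 2 the log2 fold change was -0.0051 for Rbx1 in TG against NTG, -0.013 for Nfe2l2 and -0.022 for Rbx1 in TGL, 0.066 for Mafk in TGH, and 0.65 for Maff and 0.026 for Rbx1 between the lines. Without a low-count filter Rbx1 was 0.0034 between the lines. With 1 library left out, Mafk ran from -0.21 to 0.014 in TG, -0.49 to 0.077 in TGL, -0.29 to 0.14 in TGH and -0.14 to 0.45 between the lines. Rbx1 ran from -0.0032 to 0.062 in TGL, -0.034 to 0.13 in TGH and -0.070 to 0.10 between the lines, Bach1 from -0.31 to 0.083 in TGH, and Maff from -1.18 to 0.65 between the lines. RLE scaling changed no call. The depth put 3 counts at 0.260 to 0.436 CPM, below every level given for the 10 genes.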
